A study of Mus musculus with 2 samples.

Results

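Chemokines and their receptors were followed as a gene family through pancreatic cells of mice after pancreatitis. The family was taken by symbol: every gene named Ccl, Cxcl, Ccr, Cxcr or Ackr followed by a digit, and Xcl1, Xcr1, Cx3cl1 and Cx3cr1. This gave 67 gene identifiers of 31053 in the feature table, under 62 symbols, of which 44 identifiers are ligands, 19 are signalling receptors and 4 are atypical receptors. Ccl19, Ccl21a, Ccl21b, Ccl21c and Ccl27 stand under more than 1 identifier each, so reads of these near-identical copies could be split and their counts are uncertain. In the cells kept, 49 identifiers had at least 1 UMI (unique molecular identifier, 1 captured transcript), 37 had at least 10 and 29 had at least 30, while 18 had 0.

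Chemokines are small secreted proteins that direct cell movement along gradients held on the matrix and on vessel walls. They act through receptors with G proteins on the responding cell, and atypical receptors (the Ackr genes) bind chemokines and take them up without that signal. Homeostatic members such as Cxcl12 and the Ccr7 ligands place lymphocytes in tissues and lymph nodes. Inflammatory members such as Ccl2, Cxcl1 and Cxcl2 are induced in injured pancreas and are known for drawing monocytes and neutrophils.

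The mice carried R26[CA]30EYFP, a Rosa26 reporter for EYFP (a yellow fluorescent protein), on a C57Bl/6J background in both groups. The labels give no treatment for either group but name both as cells from pancreas following pancreatitis. Cells with EYFP made 1 library and cells without it made the other, so each group is 1 library and no difference below has a replicate check. None of the sources used here gives the number, age or sex of the animals, the time after pancreatitis or the cells in which EYFP can switch on. All 95% intervals cover counting error only. Levels are CPM, the UMIs of a gene scaled to 1000000 UMIs of the same sum of cells.

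The EYFP+ library kept 860 cells with 2745342 UMIs and a median of 1007.5 UMIs per cell. The EYFP- library kept 553 cells with 4857210 UMIs and a median of 8020. Chemokine and receptor genes made up 2621 of these UMIs (0.0955%) in the EYFP+ library and 5419 (0.112%) in the EYFP- library. The libraries shared 4 cell barcodes. Cells were grouped without using the family's genes and named by other markers: T-like (229 EYFP+ and 389 EYFP- cells), B-like (113 and 106), ductal or metaplastic epithelial-like (219 and 2), acinar-like (87 and 1), fibroblast-like (64 and 6), blood endothelial-like (58 and 11), macrophage or monocyte-like (16 and 10), dendritic-like (10 and 1), NK or innate lymphoid-like (1 and 14) and erythroid-like (1 and 13). Cluster 10 (35 EYFP+ cells, with transcripts of NK and of ductal cells) and cluster 14 (27 EYFP+ cells, with hemoglobin and macrophage transcripts) stayed unnamed. The erythroid-like cluster, with a median of 19485 UMIs per cell, also held lymphocyte transcripts, among them 67 Cd8b1 and 32 Cd8a UMIs. Its EYFP- cells held 22 Ccr7, 14 Cxcr4, 6 Cxcr3 and 5 Cxcr5 UMIs. No cluster was named as neutrophils or mast cells. Of the neutrophil markers, S100a9, Retnlg and Mmp8 were at 0 UMIs in both libraries, but Mmp9 had at least 10 UMIs over both. The mast cell genes Cpa3, Mcpt4 and Tpsb2 were at 0 as well. The other neutrophil and mast cell markers are not given here.

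**Figure D1:**
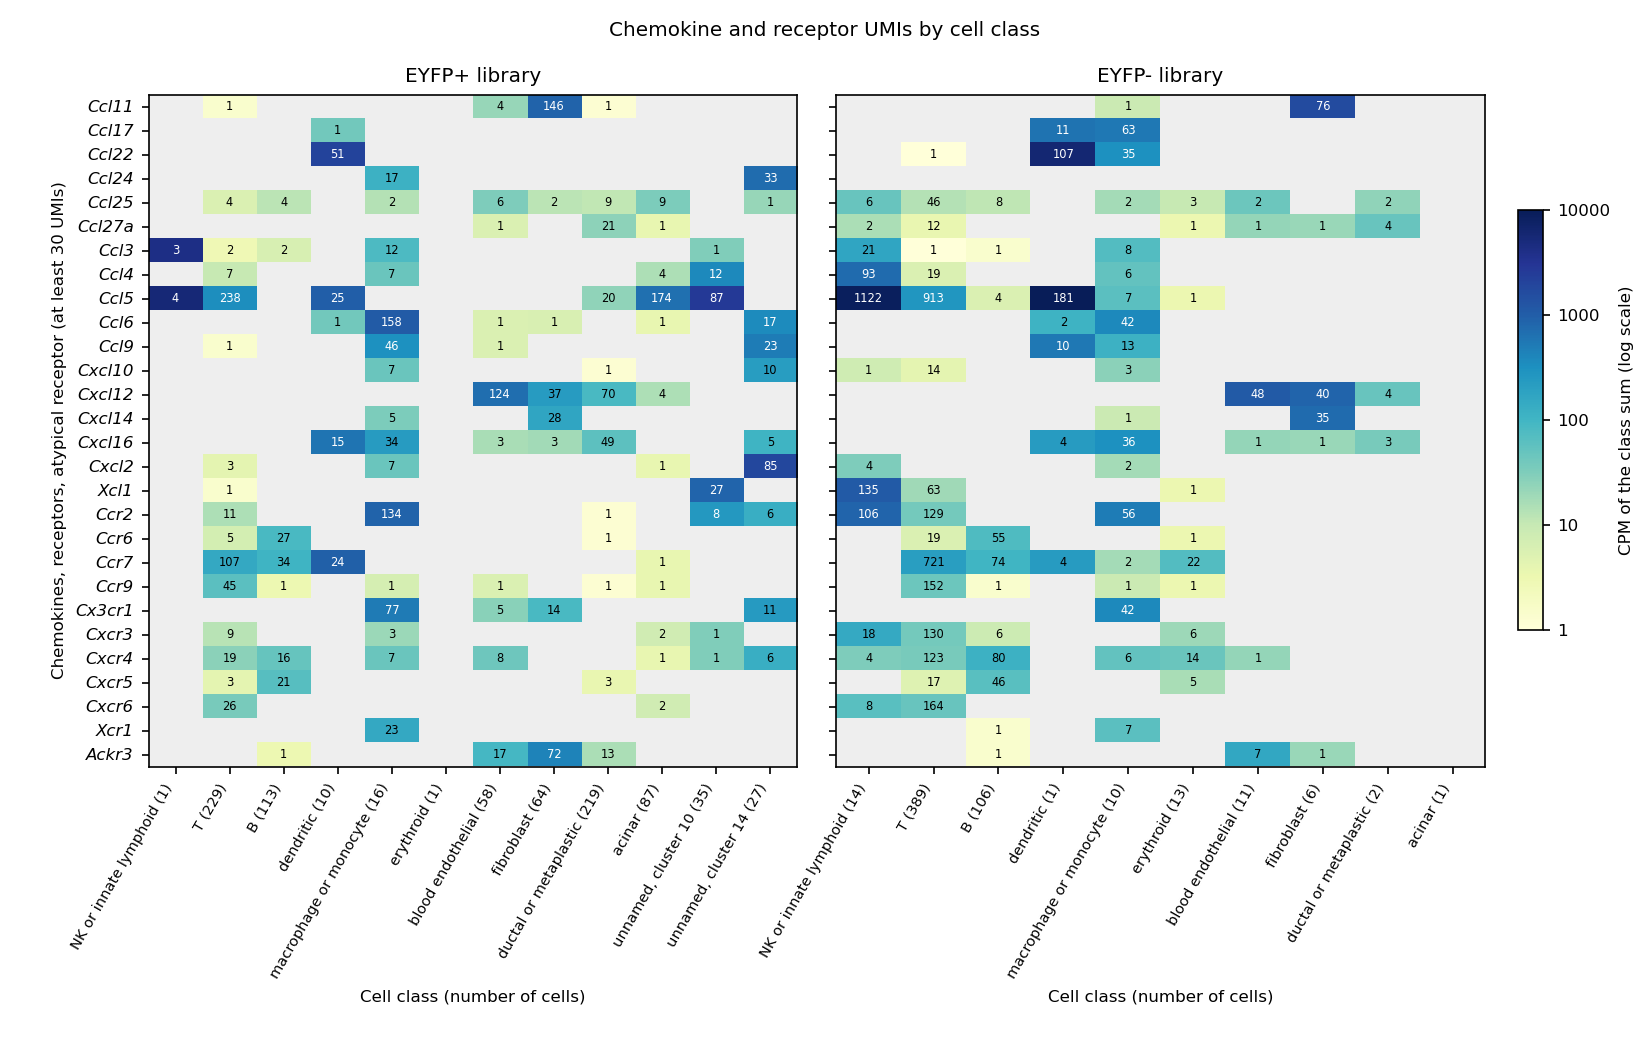
UMIs of 28 chemokines, receptors and atypical receptors with at least 30 UMIs (rows) in each cell class (columns, with the number of cells), for the EYFP+ library on the left and the EYFP- library on the right. Numbers are UMIs, colour is CPM of the class sum on a log scale, and grey is 0 UMIs. Among classes of more than 1 cell, Ccl5 and Xcl1 are darkest in NK or innate lymphoid-like cells (1122 and 135 UMIs in 14 EYFP- cells). The single EYFP- dendritic-like cell, with 181 Ccl5 UMIs, has a higher Ccl5 level. Ccl11 is darkest in fibroblast-like cells (146 and 76 UMIs), and Ccr7 is spread over T-like cells (107 and 721 UMIs).

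Cytotoxic lymphocytes were the richest source of chemokine transcripts. Ccl5 (RANTES, a ligand of Ccr1 made by cytotoxic and memory lymphocytes; chr11:83525778-83530518, minus strand, GRCm38) had the most UMIs of the family, 548 in the EYFP+ and 2228 in the EYFP- library. All 14 EYFP- NK or innate lymphoid-like cells held it, with 26 UMIs in the lowest cell, a median of 79.5 and 219 in the highest. Their level was 8936 CPM (8421 to 9475), against 268.9 CPM (252 to 287) in EYFP- T-like cells. Only 48 of 389 EYFP- T-like cells held Ccl5, with a median of 2.5 UMIs among them, and the highest cell held 237 of the 913 UMIs. Among EYFP+ T-like cells 15 of 229 held it, and 128 of their 238 UMIs came from 1 cell. Ccl5 was therefore spread over the NK class but sat in few T-like cells.

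Xcl1 (lymphotactin, the ligand of Xcr1; chr1:164931644-164935527, minus strand) also had most of its EYFP- UMIs in the NK class, 135 of 199. All 14 EYFP- NK or innate lymphoid-like cells held it as well as Ccl5, with 1 UMI in the lowest cell, a median of 6.5 and 35 in the highest. Their level was 1075 CPM (902 to 1273), against 18.6 CPM (14.3 to 23.7) in EYFP- T-like cells, where 24 of 389 cells held a UMI. In the EYFP+ library 27 of 28 Xcl1 UMIs lay in the unnamed cluster 10, in 12 of its 35 cells, at 846.1 CPM (558 to 1231). That cluster also held Ccl5 in 25 of 35 cells, at 2726 CPM (2184 to 3363). It held all 10 NK markers (113 UMIs) and 10 of 14 ductal markers (131 UMIs), and its cells had a median of 786 UMIs. The part of the ductal transcripts in the values of this cluster was not tested. With a Spearman correlation over 16 class sums as a description, the genes closest to Xcl1 were Eomes (0.996), Tnfsf14 (0.987), Cst7 (0.983), Il18rap (0.945) and Samd3 (0.937). The classes are few and many hold 0, so the order among these genes carries little weight.

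Ccl3 and Ccl4 (MIP-1 alpha and beta, inflammatory ligands released by activated NK, T and myeloid cells) lie beside Ccl5 on chromosome 11. In the EYFP- NK or innate lymphoid-like class Ccl4 had 93 UMIs in 8 of 14 cells, with a median of 1.5 and 50 in the highest cell, so 1 cell held more than all others together. Ccl3 had 21 UMIs in 6 of these cells. Among T-like cells Ccl4 had 19 UMIs in 3 EYFP- cells and 7 UMIs in 2 EYFP+ cells. Macrophage or monocyte-like cells held Ccl3 (12 EYFP+ and 8 EYFP- UMIs) and Ccl4 (7 and 6 UMIs) at low levels.

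Ccl5 also appeared in 15 of 87 EYFP+ acinar-like cells, the exocrine cells that make digestive enzymes, with 1 to 23 UMIs per cell and a median of 11. All 15 held T cell markers, at 2883 CPM (2382 to 3458), against 75.2 CPM (43.8 to 120) in the 72 acinar-like cells without Ccl5. NK markers were at 770.5 CPM (523 to 1094) against 8.85 CPM (1.07 to 32.0), and acinar markers at 89599 against 182352 CPM. The Ccl5 of these 174 UMIs thus lay in droplets that also held lymphocyte transcripts. The part of such droplets in the acinar value was not tested.

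Endothelial-like cells and fibroblast-like cells were the leading sources of Cxcl12 (SDF-1, the ligand of Cxcr4 that retains leukocytes in tissue; chr6:117168535-117181367, plus strand). Endothelial-like cells, which carried all 10 of their markers in both libraries, held 124 UMIs in 31 of 58 EYFP+ cells (highest 14) and 48 UMIs in 8 of 11 EYFP- cells (highest 18). The levels were 673.8 CPM (560 to 803) and 1078 CPM (794 to 1429). Fibroblast-like cells held 37 UMIs in 15 of 64 EYFP+ cells and 40 UMIs in 5 of 6 EYFP- cells, at 223.0 CPM (157 to 307) and 844.5 CPM (603 to 1150). Ductal or metaplastic epithelial-like cells of the EYFP+ library, with 70 UMIs in 32 of 219 cells, stood lower at 84.1 CPM (65.6 to 106). As a background, 4 of 87 EYFP+ acinar-like cells held 1 Cxcl12 UMI each. The 229 EYFP+ T-like cells (median 1198 UMIs per cell) and the 113 B-like cells (median 1355 UMIs) held none, which for T-like cells allows up to 1.31% of cells with a UMI and sets no limit on cells that express the gene. Fam13c, Msrb3 and Syn3 had the same rank order as Cxcl12 over the 16 class sums, and Ctgf and Eml1 came next (0.996 each), but most of these sums are 0 and share their ranks.

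Ccl11 (eotaxin-1, the eosinophil attractant that acts on Ccr3; chr11:82057823-82062955, plus strand) was close to restricted to fibroblast-like cells. These held 146 of 152 EYFP+ UMIs, in 27 of 64 cells with a median of 2 among them and 31 in the highest, and 76 of 77 EYFP- UMIs, in 5 of 6 cells with a median of 13 among them and 30 in the highest. The levels were 879.9 CPM (743 to 1035) and 1605 CPM (1264 to 2008). Cxcl14 (a chemokine of skin and stroma with no firmly assigned receptor) was patchier: 3 of 64 EYFP+ fibroblast-like cells held 28 UMIs and 3 of 6 EYFP- cells held 35. The neutrophil attractant Cxcl1 followed with 6 of 7 EYFP+ and 7 of 8 EYFP- UMIs in fibroblast-like cells. The Ccr7 ligand Ccl19 and the neutrophil attractant Cxcl5 gave 1 UMI each, both in EYFP- fibroblast-like cells.

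Fibroblast-like cells were also the leading holders of atypical receptors. Ackr3 (CXCR7, which binds and clears Cxcl12; chr1:90203980-90216751, plus strand) had 72 of its 103 EYFP+ UMIs in 27 of 64 fibroblast-like cells, at 433.9 CPM (340 to 546). Most of these cells held 1 UMI and the highest held 20. Endothelial-like cells held 17 UMIs in 15 of 58 EYFP+ cells and 7 UMIs in 7 of 11 EYFP- cells, at 92.4 CPM (53.8 to 148) and 157.1 CPM (63.2 to 324). The 6 EYFP- fibroblast-like cells gave 1 Ackr3 UMI. All 5 Ackr2 UMIs and all 5 Ackr4 UMIs of the EYFP+ library lay in fibroblast-like cells, those of Ackr4 in 1 cell. Ackr1 (DARC, the chemokine receptor of red cells and venules) had 4 of 5 EYFP+ UMIs in fibroblast-like cells and all 9 EYFP- UMIs in erythroid-like cells, 7 of them in 1 cell.

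Epithelial cells contributed Cxcl16 and Ccl27a. Cxcl16 is a membrane-bound chemokine, shed by proteases, whose receptor is Cxcr6. EYFP+ ductal or metaplastic epithelial-like cells held 49 Cxcl16 UMIs in 22 of 219 cells (highest 14), at 58.9 CPM (43.6 to 77.9). Macrophage or monocyte-like cells stood higher, at 227.5 CPM (158 to 318) with 34 UMIs in 9 of 16 EYFP+ cells and 314.2 CPM (220 to 435) with 36 UMIs in 5 of 10 EYFP- cells. Ccl27a (an epithelial chemokine whose receptor is Ccr10) had 21 of 23 EYFP+ UMIs in ductal or metaplastic epithelial-like cells, in 12 cells, and 12 of 21 EYFP- UMIs in T-like cells at 3.53 CPM (1.83 to 6.17). Ccl25 (the Ccr9 ligand of thymus and small intestine) had 37 EYFP+ and 69 EYFP- UMIs with at most 3 per cell, found in every named class but the dendritic-like one: EYFP- T-like cells gave 13.5 CPM (9.92 to 18.1) and EYFP+ acinar-like cells 33.8 CPM (15.5 to 64.2).

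Myeloid cells were few but carried the widest range of ligands, and their values are therefore given cell by cell. The macrophage or monocyte-like class had 26 cells. Of these, 13 held at least 5 UMIs of the complement genes C1qa, C1qb and C1qc, which mark tissue macrophages. Another 7 held a dendritic marker (Flt3, Zbtb46, Clec9a or Cd209a) with 0 C1q. The other 6 met neither rule, and most of them were cells of few UMIs that held C1q below the limit of 5. Ccl6 and Ccl9 (mouse myeloid ligands of Ccr1) were found across these cells: Ccl6 in 11 of the 13 C1q cells, in 7 of the 7 cells with dendritic markers and in 4 of the other 6. A single EYFP+ cell of 22307 UMIs with 516 Lyz2 UMIs, the lysozyme of monocytes and macrophages, held 101 of the 158 Ccl6 UMIs of EYFP+ cells in the class. Ccl12, a monocyte attractant acting on Ccr2, had 13 of its 14 UMIs in the 13 C1q cells, and the other in a cell of 1357 UMIs with C1q below the limit.

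**Figure D2:**
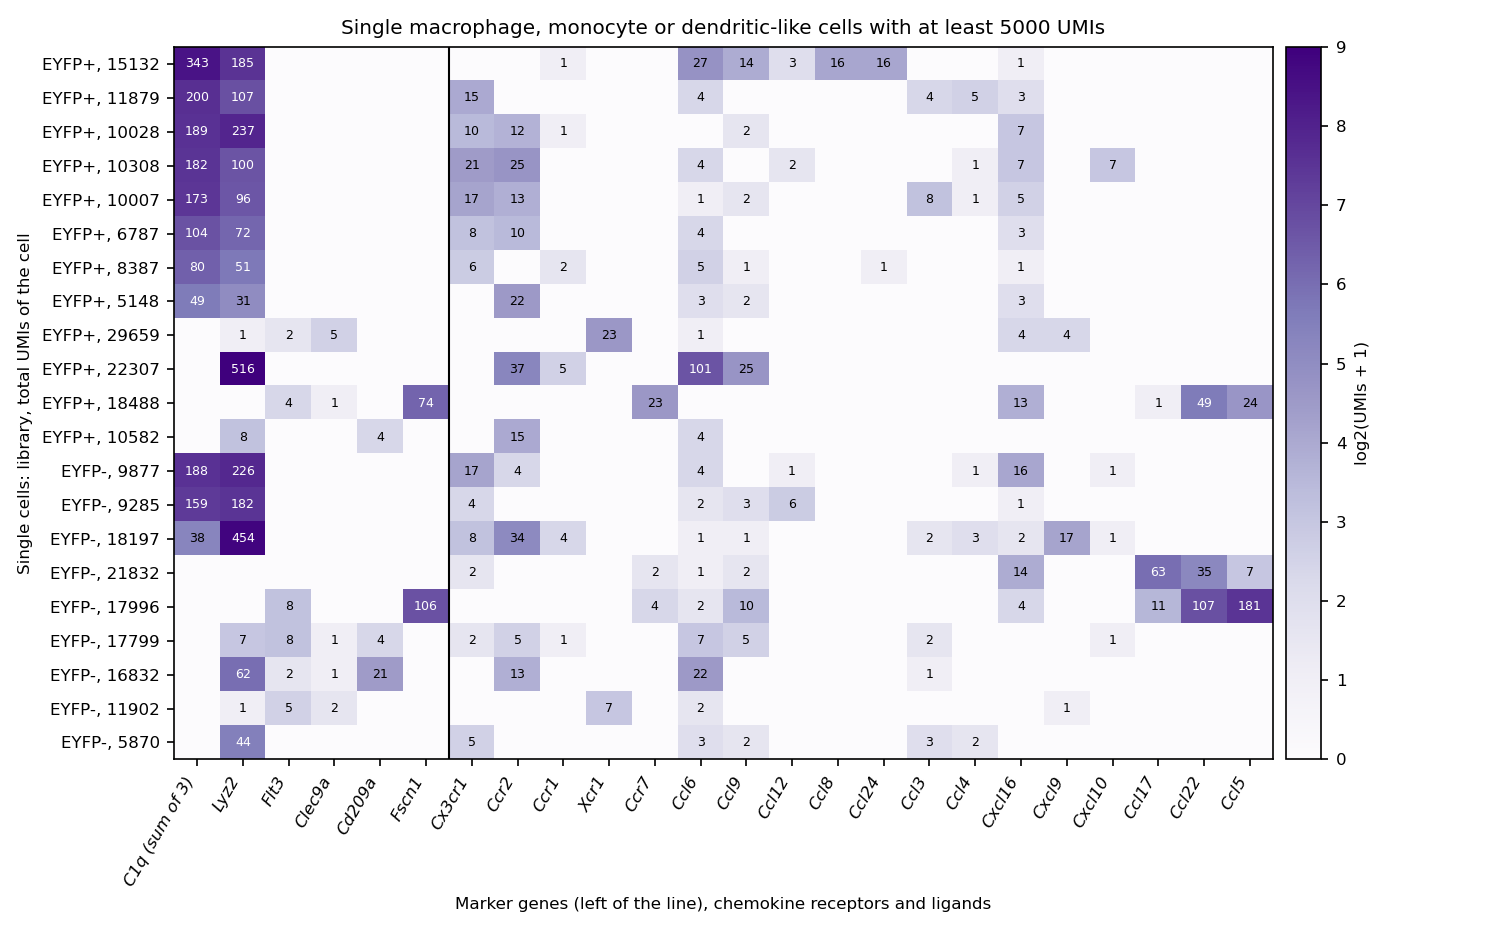
UMIs in each macrophage, monocyte or dendritic-like cell with at least 5000 UMIs (rows, labelled by library and the cell's total UMIs), for marker genes left of the line and for chemokine receptors and ligands right of it. Numbers are UMIs and colour is log2(UMIs + 1). Cx3cr1 is highest in cells with C1q (up to 21 UMIs, against at most 5 in cells without it), Xcr1 lies in a cell of 29659 and a cell of 11902 UMIs without C1q, and Ccl22 with Ccl17 or Ccr7 in cells of 21832, 17996 and 18488 UMIs.

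Ccl17 and Ccl22, the Ccr4 ligands made by activated dendritic cells, had nearly all their UMIs in 3 cells. These held all Ccl17 UMIs, while 2 EYFP+ dendritic-like cells and 1 EYFP- T-like cell held 1 further Ccl22 UMI each. An EYFP- cell of 21832 UMIs held 63 Ccl17 and 35 Ccl22 UMIs with 2 Zbtb46 UMIs and 0 Fscn1. An EYFP- dendritic-like cell of 17996 UMIs held 107 Ccl22, 11 Ccl17, 181 Ccl5 and 4 Ccr7 UMIs with 106 of Fscn1, the actin-bundling protein of migrating dendritic cells. Its EYFP+ counterpart of 18488 UMIs held 49 Ccl22, 24 Ccl5, 23 Ccr7 and 13 Cxcl16 UMIs with 74 of Fscn1, but 1 Ccl17 UMI. The pair of genes was thus present together in all 3 cells, at ratios that differed from cell to cell. Ccl22 (chr8:94745590-94751699) and Ccl17 (chr8:94810453-94812036) flank Cx3cl1 (chr8:94772009-94782427) on the plus strand of chromosome 8. Cx3cl1, the membrane-bound ligand of Cx3cr1, went elsewhere: 8 of its 17 EYFP+ UMIs lay in endothelial-like cells.

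The inflammatory ligands Cxcl2 (a neutrophil attractant acting on Cxcr2), Ccl24 (eotaxin-2), Ccl8 and Ccl2 were each dominated by 1 EYFP+ cell. Of 96 Cxcl2 UMIs, 75 lay in a cell of cluster 14 with 15876 UMIs, which also held 33 Ccl24, 23 Ccl9, 17 Ccl6, 10 Cxcl10 and 5 Ccl2 UMIs. Another 8 cells of cluster 14 held the remaining 10 of its 85 Cxcl2 UMIs. A C1q cell of 15132 UMIs held 27 Ccl6, 16 Ccl24, 16 Ccl8 and 14 Ccl9 UMIs and no Cxcl2. In the EYFP- library Cxcl2 had 6 UMIs and Ccl24, Ccl8 and Ccl2 had 0. Cxcl9 and Cxcl10, the interferon-induced ligands of Cxcr3, had 22 and 36 UMIs in all. An EYFP- cell of 18197 UMIs with 454 Lyz2 UMIs held 17 of the 18 Cxcl9 UMIs of its library, and 14 of 18 EYFP- Cxcl10 UMIs lay in T-like cells.

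Cxcl1, Cxcl2 and Cxcl10 are textbook targets of the transcription factor NF-kappaB, and the promoter windows are shown because the cell richest in Cxcl2 also held Cxcl10. Windows from RefSeq (GRCm38.p6, 250 bases before to 50 after each start) matched 46 of the 62 symbols. The kappaB consensus motif, searched on both strands with overlaps allowed, was found in the windows of 10 of 46 family genes (21.7%), against 5.14% of 27025 genes. The 10 were Ackr2, Ccl20, Ccl27a, Ccl9, Ccr3, Ccr6, Cxcl1, Cxcl10, Cxcl2 and Cxcl3. The interferon-response motif (GAAA, NN, GAAA, without gaps), searched in the same way, was found in Ccl19, Cxcl10 and Cxcl14, 3 of 46 (6.52%) against 3.99% of genes. Capitals below mark matches to the kappaB motif, with 40 bases on either side.
Cxcl1 (chr5:90891134-90891224, plus strand): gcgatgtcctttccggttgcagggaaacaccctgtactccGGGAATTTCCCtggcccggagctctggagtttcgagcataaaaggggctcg
Cxcl2 (chr5:90903762-90903852, plus strand): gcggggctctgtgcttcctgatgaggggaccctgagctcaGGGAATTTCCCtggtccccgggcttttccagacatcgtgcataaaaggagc
Cxcl3 (chr5:90785988-90786078, plus strand): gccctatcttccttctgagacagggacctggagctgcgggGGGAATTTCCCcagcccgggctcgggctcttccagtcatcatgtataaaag
Cxcl10 (chr5:92348943-92349088, minus strand): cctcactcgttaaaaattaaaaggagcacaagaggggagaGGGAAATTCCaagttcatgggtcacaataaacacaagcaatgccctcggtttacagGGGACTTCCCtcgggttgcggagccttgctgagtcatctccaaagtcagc

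Cxcl1, Cxcl2 and Cxcl3 carry the same 11 letters, GGGAATTTCCC, which hold a match on each strand, 71, 97 and 73 bases before the start. Cxcl10 carries different matches at 159 and 103 bases before it. A match is a description of the letters and not a bound site. Although 3 genes share it, Cxcl1 lay in fibroblast-like cells (13 of 15 UMIs), Cxcl2 in cluster 14 (85 of 102 UMIs) and Cxcl3 gave 2 UMIs.

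Among receptors, T-like clusters separated into a Ccr7 and a Cxcr3, Cxcr6 and Ccr2 pattern. Ccr7 is the receptor that naive and central memory lymphocytes use to enter lymph nodes (chr11:99144196-99155077, minus strand). It had 721 UMIs in 279 of 389 EYFP- T-like cells, 212.3 CPM (197 to 228), and 107 UMIs in 64 of 229 EYFP+ T-like cells, 148.7 CPM (122 to 180). Of the EYFP- clusters, cluster 0 (211 cells, Cd4 and Cd8b1 both present) stood at 255.5 CPM and cluster 4 (112 cells, 1417 Cd8b1 and 14 Cd4 UMIs over both libraries) at 223.1 CPM. Cluster 5 (66 cells, with 48 Foxp3 UMIs over both libraries) was lower, at 54.4 CPM (36.4 to 78.1). The intervals of clusters 0 and 4 overlapped each other, and neither overlapped that of cluster 5.

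**Figure D3:**
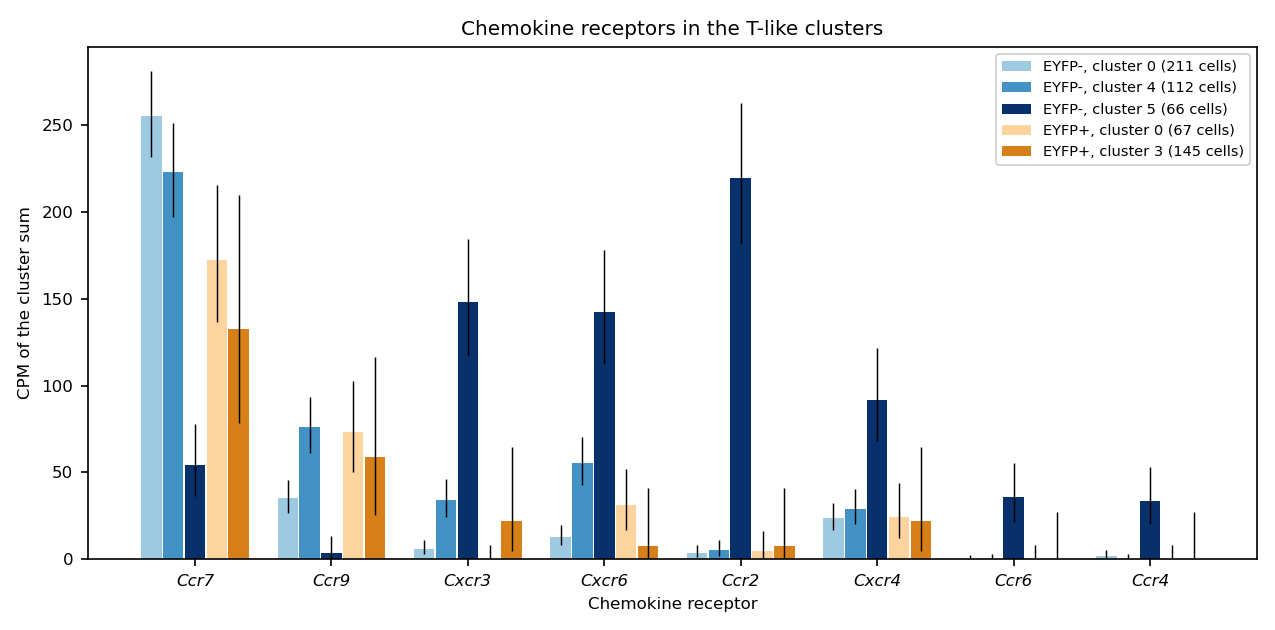
Level of 8 chemokine receptors (CPM of the cluster sum, with exact 95% Poisson intervals for counting error) in the T-like clusters that held most T-like cells of each library. Blue bars are EYFP- and orange bars EYFP+. Cluster 5 of the EYFP- library has the lowest Ccr7 of the EYFP- clusters (54.4 CPM) and the highest Ccr2 (219.4 CPM), Cxcr3 (148.1 CPM) and Cxcr6 (142.5 CPM).

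Cluster 5 had the higher levels of receptors for inflamed tissue. Cxcr3, the receptor for Cxcl9 and Cxcl10 on effector T cells, was at 148.1 CPM (117 to 185) in EYFP- cluster 5, 33.9 CPM (24.3 to 46.0) in cluster 4 and 6.05 CPM (2.90 to 11.1) in cluster 0. Cxcr6, the receptor of tissue-resident T cells, followed the same order at 142.5 CPM (112 to 178), 55.4 CPM (42.9 to 70.3) and 12.7 CPM (7.87 to 19.4). Ccr2, the receptor for Ccl2 and Ccl12, had 117 of the 129 EYFP- T-like UMIs in cluster 5, in 16 of 66 cells. Ccr4, the receptor for Ccl17 and Ccl22 on helper and regulatory T cells, gave 33.8 CPM in cluster 5 and had 21 of its 22 EYFP- UMIs in T-like cells. Among the 389 EYFP- T-like cells 253 held Ccr7 without Cxcr3, 29 held Cxcr3 without Ccr7, 26 held both and 81 held neither. Ccl5 was found in 25 of the 55 cells with Cxcr3, 45.5%, and in 6.89% of the cells without it.

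Ccr9, the gut-homing receptor for Ccl25 (chr9:123678439-123784330, plus strand), was a receptor of Cd8b1-bearing T cells in these data. Of 69 EYFP- T-like cells with Ccr9, 64 held Cd8b1 and 4 held Cd4, while Cd8b1 was found in 31.9% and Cd4 in 48.1% of the T-like cells without Ccr9. In the EYFP+ library 19 of 22 cells with Ccr9 held Cd8b1 and 0 held Cd4. The level was 76.0 CPM (61.3 to 93.2) in EYFP- cluster 4 and 35.1 CPM (26.7 to 45.4) in cluster 0. Most of these cells also held Ccr7, 66 of 69 in the EYFP- library. Among all other classes Ccr9 gave at most 1 UMI per class and library.

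B-like cells shared a set of follicular and homeostatic receptors. Cxcr5, the receptor for Cxcl13 that leads B cells to follicles, was at 65.1 CPM (40.3 to 99.5) in EYFP+ and 64.1 CPM (46.9 to 85.5) in EYFP- B-like cells. Ccr6, the receptor for Ccl20, was at 83.7 CPM (55.2 to 122) and 76.6 CPM (57.7 to 99.7). Ccr7 was at 105.4 CPM (73.0 to 147) and 103.1 CPM (81.0 to 129). For these 3 receptors the levels of both libraries lay within each other's intervals. Cxcr4 was the exception, with 16 UMIs in 14 of 113 EYFP+ cells against 80 UMIs in 47 of 106 EYFP- cells, 49.6 CPM (28.4 to 80.6) against 111.5 CPM (88.4 to 139). As a background, Ccr7 had 0 UMIs in the EYFP+ ductal (median 802 UMIs per cell), fibroblast-like (707) and endothelial-like (1212.5) cells, and Cxcr5 3, 0 and 0.

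Within the macrophage or monocyte-like class, Cx3cr1 lay mostly in C1q cells and Xcr1 in 2 cells with dendritic markers. Ccr2 was found in both groups. Cx3cr1, the fractalkine receptor of monocytes and resident macrophages (chr9:119901616-120069879, minus strand), had 109 UMIs in 10 of the 13 C1q cells, with a median of 8 and a highest cell of 21, and 4 UMIs in 2 of the 7 cells with dendritic markers. Ccr2 had 120 UMIs in 7 of the C1q cells, highest 34, and 33 UMIs in 3 cells with dendritic markers, highest 15. Xcr1, the receptor of cross-presenting dendritic cells (chr9:123852315-123862029, minus strand), was absent from all C1q cells. Its 23 EYFP+ UMIs lay in 1 cell of 29659 UMIs with 5 Clec9a, 2 Flt3 and 4 Cxcl9 UMIs, and 7 of its 8 EYFP- UMIs lay in 1 cell of 11902 UMIs with 2 Clec9a and 5 Flt3 UMIs. Ccr2 was also a receptor of the NK class: 13 of 14 EYFP- NK or innate lymphoid-like cells held it, with a median of 5.5 UMIs, 32 in the highest cell and a level of 844.3 CPM (691 to 1021). An EYFP+ fibroblast-like cell with 287 fibroblast marker UMIs and 0 macrophage marker UMIs held 14 Cx3cr1 UMIs, which no other fibroblast-like cell held.

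Ligand sources were then matched with receptor-bearing classes for 34 textbook ligand and signalling receptor pairs. A class was said to hold a gene only with at least 5 UMIs in at least 3 cells. The interval of its level also had to lie wholly above the level of the whole library. Otherwise its level had to be the highest of all classes. The rule is tied to class size. EYFP- T-like cells held 3395452 of the 4857210 UMIs of their library, so their level cannot rise far above that of the whole library. There Cxcr3 was held by the NK class alone, on 18 UMIs, though T-like cells had 130 of its 160 UMIs. Both ends were held for 8 pairs in the EYFP+ and 4 in the EYFP- library, and those 4 were found in both. Cxcl12 from endothelial-like and fibroblast-like cells was matched with Cxcr4 on B-like cells in both libraries. T-like cells held the most Cxcr4 UMIs, 19 of 58 EYFP+ and 123 of 228 EYFP-, but did not meet the rule. The same Cxcl12 sources were matched with the scavenger Ackr3 on endothelial-like cells of both libraries and on fibroblast-like cells of the EYFP+ library. Cxcl16 from macrophage or monocyte-like cells of both libraries, and from ductal and dendritic-like cells of the EYFP+ library, was matched with Cxcr6 on T-like cells. Ccl12 with Ccr2 joined macrophage or monocyte-like cells to themselves and, in the EYFP- library, to NK or innate lymphoid-like cells. In the EYFP+ library alone the rule also gave endothelial-like Cx3cl1 with myeloid Cx3cr1, and Ccl5, Ccl6 and Ccl9 with Ccr1. The Ccl5 sources were T-like cells, cluster 10 and acinar-like cells, the last with the lymphocyte transcripts described above. Unnamed clusters of that library met the rule for receptors too, cluster 14 for Cxcr4 and Cx3cr1 and cluster 10 for Ccr2. Ccl25 with Ccr9 met the rule in both, but on 9 acinar-like and 6 NK-class ligand UMIs. Other matches were as thin. Ccl12 had 6 EYFP+ and 8 EYFP- UMIs in the macrophage or monocyte-like class, and Ccr1 had 9 EYFP+ UMIs there. Endothelial-like Cx3cl1 had 8 EYFP+ UMIs, and 13 of the 15 dendritic-like Cxcl16 UMIs of that library lay in 1 cell.

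Other receptors had no matching ligand in these cells, or the reverse. Ccr7 had 166 and 823 UMIs, while its ligands Ccl19 and the Ccl21 genes gave 1 UMI in all. Ccr6 had 108 UMIs over both libraries and Ccl20 had 0. Cxcr5 had 95 and Cxcl13 had 0. In the other direction Ccl11 had 229 UMIs, but Ccr3 had 6, all in 1 EYFP- T-like cell. Cxcl2 had 102 UMIs and its receptor Cxcr2 had 3, with Cxcr1 at 0, and no cluster was named as neutrophils. Xcl1 had 227 UMIs over both libraries, and its receptor Xcr1 lay almost entirely in 2 cells. These are counts of transcripts in the cells captured, and a cell type absent from the libraries cannot be seen as a source or a target.

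Between whole libraries, 37 family genes had at least 10 UMIs and were compared. Of these, 13 were at least 2-fold higher in the EYFP+ library, beside 26.8% of all 13282 genes measured, and 10 were at least 2-fold lower, beside 8.06% of all genes. The median log2 fold of the 37 was 0.44, against 0.21 over all genes. Ligands were 9 higher and 5 lower of 22, receptors 3 higher and 5 lower of 13. The 13 higher genes were Ackr3, Cxcl12, Ccl11, Cxcl16, Cx3cl1, Cx3cr1, Ccr1, Ccl6, Ccl9, Cxcl2, Ccl24, Ccl8 and Xcr1, and the 10 lower were Ccl5, Ccl4, Xcl1, Ccr7, Cxcr3, Cxcr4, Cxcr6, Ccr4, Ccl17 and Cxcl9. Most of the higher genes had their UMIs in stromal, myeloid or unnamed EYFP+ cells and most of the lower ones in T-like or NK-class cells. Most of these classes made up different shares of the cells of the libraries. Macrophage or monocyte-like cells did not, at 1.86% of EYFP+ and 1.81% of EYFP- cells. They held 149463 of 2745342 EYFP+ UMIs and 114586 of 4857210 EYFP- UMIs. The NK class made up 0.116% of EYFP+ and 2.53% of EYFP- cells. It leaves out cluster 10, 4.07% of EYFP+ cells, which held NK and ductal transcripts and 27 of the 28 EYFP+ Xcl1 UMIs.

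**Figure D4:**
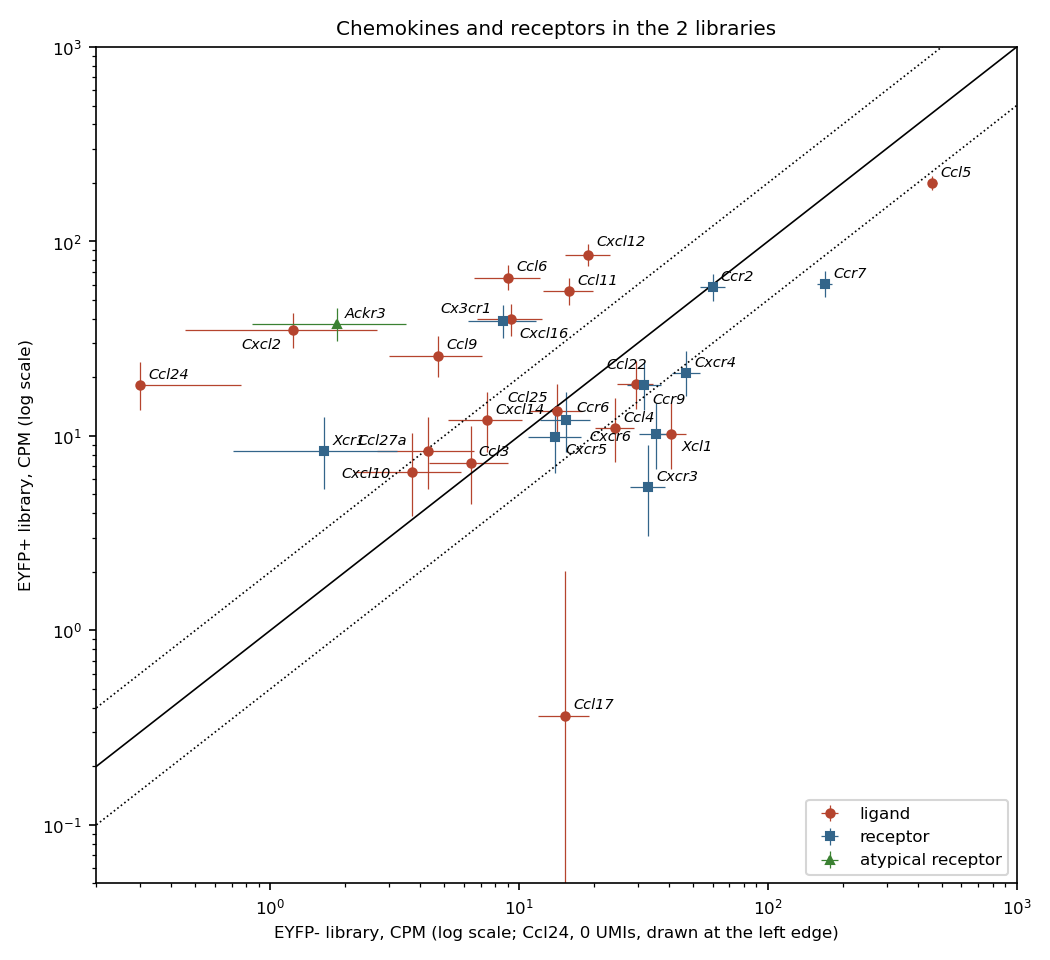
Level of 28 family genes with at least 30 UMIs in the EYFP- library (x axis) and the EYFP+ library (y axis), in CPM on log scales, with exact 95% Poisson intervals for counting error. The solid line marks equal levels and the dotted lines 2-fold differences. Ackr3, Cxcl12 and Ccl6 lie above the band (20.2, 4.52 and 7.20-fold), Ccl5, Ccr7 and Cxcr3 below it (0.435, 0.357 and 0.166-fold), and Ccr2 on the line of equal levels (0.973-fold).

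Ackr3 was 20.2-fold higher (10.3 to 45.5), with 103 UMIs in 49 EYFP+ cells and 9 UMIs in 9 EYFP- cells. Cxcl12 was 4.52-fold higher (3.54 to 5.82), with 235 UMIs in 82 cells and 92 UMIs in 15 cells. Ccl11 was 3.49-fold (2.64 to 4.66), Cxcl16 4.29-fold (3.002 to 6.21), Ccl6 7.20-fold (5.15 to 10.3), Ccl9 5.46-fold (3.37 to 9.16) and Cx3cr1 4.51-fold higher (3.13 to 6.60). Yet within the class that held it, Cxcl12 was no higher in EYFP+ cells, as the endothelial and fibroblast levels above show, and neither was Ccl11 in fibroblast-like cells. Other genes were higher within their class as well. Ackr3 was at 433.9 against 21.1 CPM (0.535 to 118) in fibroblast-like cells, the latter from 1 UMI in 6 cells. In macrophage or monocyte-like cells Ccl6 was at 1057 against 366.5 CPM, with 101 of the 158 EYFP+ UMIs in 1 cell, and Ccl9 at 307.8 against 113.5 CPM, with 25 of 46 in the same cell. Cx3cr1 was at 515.2 (407 to 644) against 366.5 CPM (264 to 495), intervals that overlap, and Cxcl16 in the same class was not higher, as given above. Cxcl2 was 28.3-fold (12.5 to 79.1) and Ccl24 at least 29.5-fold higher, but each rested on 1 cell with 75 of 96 and 33 of 50 UMIs. Xcr1 rested on single cells too: its fold was 5.09 (2.20 to 13.2) and 0.737 when every cell had equal weight.

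In the other direction Ccl5 stood at 0.435-fold (0.396 to 0.478), Ccr7 at 0.357-fold (0.300 to 0.422), Cxcr3 at 0.166-fold (0.0907 to 0.282), Cxcr6 at 0.288-fold (0.186 to 0.431) and Cxcr4 at 0.450-fold (0.331 to 0.603). Xcl1 was at 0.249-fold (0.161 to 0.371), with 28 UMIs in 13 EYFP+ cells and 199 UMIs in 39 EYFP- cells. Ccl4 was at 0.450-fold (0.291 to 0.676). With each cell thinned to 500 UMIs, Xcl1 turned to 2.31-fold (18 against 5 UMIs) and Ccl4 to 1.13-fold (7 against 4). Neither direction held at this equal depth, where few UMIs were left. As a mean over cells neither gene turned direction. Ccr2 (0.973-fold, 0.797 to 1.18), Ccl25 (0.949, 0.619 to 1.43), Ccr6 (0.778, 0.501 to 1.19) and Cxcr5 (0.702, 0.432 to 1.11) had intervals that include equal levels. Ccr9 (0.571, 0.406 to 0.790) and Ccl22 (0.631, 0.449 to 0.874) differed by less than 2-fold. Cxcl14, Ccl27a, Ccl3 and Cxcl10 were between 1.14 and 1.94-fold.

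Within T-like cells 16 family genes had at least 10 UMIs, and 0 were at least 2-fold higher in EYFP+ cells (3.32% of all 9819 genes) while 4 were lower (8.5% of all genes). The 4 were Cxcr3 at 0.327-fold (0.146 to 0.640), Ccr2 at 0.402-fold (0.196 to 0.744), Ccl25 at 0.410-fold (0.107 to 1.12) and Xcl1 at 0.0749-fold (0.00187 to 0.433), the last with 1 UMI against 63. Ccr7 was at 0.700-fold (0.566 to 0.859) and Ccr9 at 1.40-fold (0.979 to 1.96). Ccl5 was at 1.23-fold (1.06 to 1.42), but at 0.768-fold without the highest cell of each library and at 0.503-fold when cells had equal weight. Of the EYFP+ T-like cells 145 of 229 lay in cluster 3, which had no EYFP- cell and a median of 728 UMIs, and 9 lay in cluster 5, against 66 of 389 EYFP- cells. The part of this mix of clusters in the T-like folds was not tested. Without cluster 3, 2 genes were at least 2-fold higher.

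Within B-like cells 5 family genes could be compared. Cxcr4 was at 0.445-fold (0.243 to 0.768), the only one of the 5 past 2-fold, beside 8.88% of 7147 genes lower and 5.79% higher. Ccr7 (1.02, 0.660 to 1.55), Ccr6 (1.09, 0.663 to 1.76), Cxcr5 (1.02, 0.576 to 1.74) and Ccl25 (1.11, 0.245 to 4.15) had intervals that include equal levels. In cells of at least 5000 UMIs Cxcr4 was at 0.241-fold, on 4 against 60 UMIs. At resolution 0.5 it was at 0.539-fold and no longer past 2-fold, and with cells thinned to 500 UMIs it had 0 against 9 UMIs, too few to be compared. Of the EYFP+ B-like cells 66 of 113 lay in cluster 7, which had no EYFP- cell and a median of 691 UMIs, while all 106 EYFP- cells lay in cluster 2. Without cluster 7 Cxcr4 was at 0.451-fold, on 13 against 80 UMIs.

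Genes that act with the family were taken from lists written for this work, and their counts stand beside 26.8% of all genes higher and 8.06% lower. Of 20 signalling genes downstream of chemokine receptors, 0 were at least 2-fold higher and 5 lower in the EYFP+ library, and these 5 are known from leukocytes or regulate the receptors: Rac2 (0.342-fold), Vav1 (0.448), Rgs10 (0.460), Grk2 (0.486) and Ptk2b (0.492). Of 9 genes for processing or presenting ligands 6 were higher, among them the heparan sulfate proteoglycan genes Sdc4 (4.16-fold) and Hspg2 (3.13-fold), whose chains hold chemokines, and 0 were lower. Of 20 measured inducers 3 (15%) were higher, a smaller share than over all genes, namely the cytokine Il1b (3.24-fold) and the receptors Il1r1 (3.08) and Ltbr (5.31), and 3 were lower, the lymphocyte cytokines Ifng (0.336), Lta (0.340) and Ltb (0.458). Among chemokine-like genes outside the symbol rule 5 of 8 were higher, led by the platelet and macrophage chemokine Pf4 (16.8-fold) and the chemerin gene Rarres2 (7.08-fold). Within T-like cells, beside 3.32% of all genes higher and 8.5% lower, none of these 4 lists had a gene at least 2-fold lower, and 1 gene, of the chemokine-like list, was higher.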

How the data were processed

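Per the labels' protocols, a 5′ Chromium kit (version 1.1) was used and each library had its own sequencing lane. The authors deposited UMI counts of genes by barcodes, whole numbers with no sign of scaling. Per the submitters' processing notes the tool was Cell Ranger 2.1.0 and the build GRCh38, but per the file headers the version was 3.1.0 and the identifiers are mouse Ensembl genes, so the build is not taken as known. Gene coordinates are those of GENCODE M21 (GRCm38) for the same identifier. The feature table holds no EYFP transcript, so the sort was not checked.

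A barcode was kept from 200 genes up and with no more than 20% mitochondrial UMIs (860 of 1717 and 553 of 745). Both libraries were clustered together in scanpy 1.11.5 from 2000 variable genes without the chemokine family, with 30 principal components, 15 neighbours and Leiden resolution 1.0. A cluster was named from at least 3 markers at 2-fold or more over the library's reference cluster level, and stayed unnamed where another type's markers came close. The reference was the median over clusters in the EYFP+ library and the lower quartile in the EYFP- library, a lower bar. This naming rule was set after the clusters were seen. Doublets were kept, since Scrublet marked 2 and 5 cells, and their removal was an alternative.

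UMIs were summed per class and library. Levels carry exact Poisson, shares exact Clopper-Pearson and folds (EYFP+ over EYFP-) exact conditional binomial 95% intervals. A sum of 0 UMIs was set to a floor of 3 for a fold, which is then a lower bound. Genes with at least 10 UMIs were compared and called at 2-fold. Members with at least 30 UMIs are named with their values. With 1 library per group no test was made. Fold and interval code was tested on simulated data. Members, marker lists and pathway lists were chosen with earlier results of these data known. A receptor gene is counted in the family but otherwise not reported here, and its ligand pairs were left out.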

Additional observations from a re-analysis of the deposited data

Results flagged for a closer look

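Barcodes left out by the filter on genes and mitochondrial share still held chemokine and receptor UMIs. The 857 EYFP+ barcodes left out held 94, led by Ccl5 (27), Cxcl12 (17) and Ccr7 (7). The 192 EYFP- barcodes left out held 37, led by Ccl4 (7), Ccl5 (6) and Ccr7 (4). They were looked at because they lie outside all comparisons and exceed the limit that a count of 0 allows.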

How the results depend on the processing

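No paired analysis was possible because each group is 1 library and the labels carry no replicate number. Between whole libraries the 13 higher genes became 4 and the 10 lower ones 5 with cells thinned to 500 UMIs, and 3 were lower at 4-fold. In T-like cells the 0 higher genes became 1 with thinned cells, with the family kept among the clustering genes or at resolution 2.0. They became 2 with the stricter cell filter (500 genes, 10% mitochondrial UMIs), with each library clustered by itself, without the clusters that hold no EYFP- cell, or in cells of at least 5000 UMIs. The last 2 alternatives were chosen after seeing the data. The 4 lower T-like genes became 2 with thinned cells and 8 with each library clustered by itself. In B-like cells the 1 lower gene became 2 as a mean over cells and 0 with thinned cells or at resolution 0.5. Of the 33 genes with a leading class, 10 kept it with thinned cells and 20 with separate clustering. With thinned cells most of the others no longer had 5 UMIs in 3 cells of any class. With separate clustering 0 cells were named macrophage or monocyte-like or dendritic-like, and 0 EYFP- cells fibroblast-like or endothelial-like. Comparisons within these classes could not be repeated there. The dendritic-like class also had 0 cells with the stricter filter or with the family kept among the clustering genes. Matched pairs fell from 8 to 2 in the EYFP+ and from 4 to 2 in the EYFP- library with at least 10 UMIs in at least 5 cells. Of the genes past 2-fold between whole libraries, 3 turned direction: Xcr1 to 0.737 as a mean over cells, Xcl1 to 2.31 and Ccl4 to 1.13 with thinned cells. In T-like cells Ccl5, at 1.23 and not past 2-fold, was at 0.768 without the highest cell of each library, 0.503 as a mean over cells and 0.470 with thinned cells. The cause was not tested. The other 74 values of counts stayed within 1.5 times. At a median of 1007.5 UMIs per EYFP+ cell, a UMI count of 0 in a cell does not show that the gene is off.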

Other observations

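Genes of the family that lie side by side in the genome (GENCODE M21, GRCm38) had their UMIs partly in the same and partly in different cell classes. On chromosome 9, Ccr9, Cxcr6, Xcr1, Ccr1 and Ccr2 lie between positions 123678439 and 124113557. Ccr9 and Cxcr6 had most UMIs in T-like cells, Xcr1 in 2 cells with dendritic markers, and Ccr1 in macrophage or monocyte-like cells. Ccr2 had high levels in both NK-class and myeloid cells. On chromosome 11, Ccl5, Ccl9, Ccl6, Ccl3 and Ccl4 lie between positions 83525778 and 83664683. Ccl5, Ccl3 and Ccl4 had high levels in NK-class cells, where Ccl6 and Ccl9 gave 0 UMIs.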
